A study of Rattus norvegicus with 59 samples.

Results

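H3K27me3, the trimethylation of lysine 27 on histone H3, was compared between the heart muscle nuclei of rats with a banded aorta and those of sham-operated rats. All 9703 genomic bins of the H3K27me3 table were used, out of 15874 bins deposited for the 2 histone marks of the series (6171 belong to H3K9me2). Of the 59 samples of the series, 8 enter this comparison, 4 per group. A bin is a stretch of the genome that a segmentation method, circular binary segmentation, treated as 1 unit of even signal. Its value is log2 RPM, the log2 of the reads in the whole bin scaled to a fixed library total, and each group has 1 value per bin for its samples together. The difference is banded minus sham-operated on that scale.

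Left ventricles of male Sprague Dawley rats gave the nuclei, which were sorted on PCM1, a centriolar satellite protein used to mark cardiomyocyte nuclei. In rats of about 170 g a suture was tightened around the ascending aorta, and hearts were taken after 6 weeks. Only banded rats with a hypertrophied heart that was not failing were kept, defined in part by a posterior wall above 1.9 mm, so the banded group is selected on the hypertrophy itself. Sham-operated rats had the same anaesthesia and operation without the tightening. The labels give no number of weeks for the sham rats and do not say whether a sample is 1 animal. A second experiment on the same bins serves as a yardstick: male Sprague Dawley rats of about 280 g that ran on a treadmill for 6 weeks (exercise) and untrained rats of that weight (control), 4 samples each. Chromatin was cut with micrococcal nuclease before precipitation in all groups.

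H3K27me3 is written by Polycomb repressive complex 2, whose catalytic subunit is EZH2 or EZH1, and it is read by the CBX proteins of Polycomb repressive complex 1. It covers silent developmental genes densely and lies thinly over wide stretches of inactive chromatin. Demethylases of the KDM6 family remove it. In heart muscle the Polycomb system is known for keeping genes of other lineages silent, and loss of EZH2 in the developing heart leads to malformation and hypertrophy. H3K9me2, the other mark of the series, is written by the G9a and GLP enzymes and also lies in wide silent domains.

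The bins covered 2510 Mb on chromosomes 1 to 20. They were 20.0 to 4620 kb long, with a median of 160 kb and quartiles of 90.0 and 310 kb. Signal per length is given as density, log2 RPM minus the log2 of the length in kb. The median density of the sham column was -1.55, or 0.342 RPM per kb, with 0.190 RPM per kb at the 5th percentile and 0.839 at the 95th. In the banded column these were 0.352, 0.181 and 0.818 RPM per kb. A bin's level followed its length (r = 0.87 between log2 length and sham log2 RPM over 9703 bins), so signal is compared between bins per kb, except where classes of level per bin are named.

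The 2 columns hold almost the same set of numbers in a different order. Sorted from low to high, they differed by at most 0.041, and at 6 of the 9703 ranks by more than 0.01. Bins at rank 19 from the top, for example, had 9.73 in both columns, although they lie on different chromosomes. A difference between the columns is therefore a move of a bin relative to the other bins, and a change of H3K27me3 over the whole genome would not show. The sums were 966900 RPM in sham and 967010 RPM in banded rats. With 1 pooled value per group there is no replicate check on any difference below, no test was possible, and the number of reads behind a bin is unknown.

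The H3K27me3 landscape of banded hearts was close to that of sham hearts, bin by bin. The order of the bins was nearly the same (r = 0.996, rho = 0.996 over 9703 bins, which share length), and the median bin moved by 129.5 ranks. The difference had a median of 0.0079, quartiles of -0.069 and 0.075 and an SD of 0.12 over bins. It lay within 0.1 in 6240 bins, which is 64.3% of them. The RPM that would have to move between bins to turn 1 column into the other was 2.46% of the total.

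More bins lay in the lower tail than in the upper one. Banded rats were higher by over 0.2 in 334 bins, 3.44% of all, and lower by over 0.2 in 510 bins, 5.26%, together 8.70%. Past 0.5, the limit set for single bins, there were 2 higher bins (0.0206%) and 2 lower ones (0.0206%). The same bins in trained against control rats had an SD of 0.11, with 231 bins higher by over 0.2 (2.38%) and 472 lower (4.86%), and 1.99% of the RPM moved. Past 0.5, training had 8 higher bins (0.0824%) and 4 lower ones (0.0412%). Somewhat more of the RPM thus differed between banded and sham than between exercised and control rats, and fewer bins passed 0.5. With 1 pooled value per group, the source of these gaps was not tested. Sham against control rats, which differ in experiment, body weight and operation, were farther apart than either pair, with an SD of 0.25 and 6.44% of the RPM moved.

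**Figure D1:**
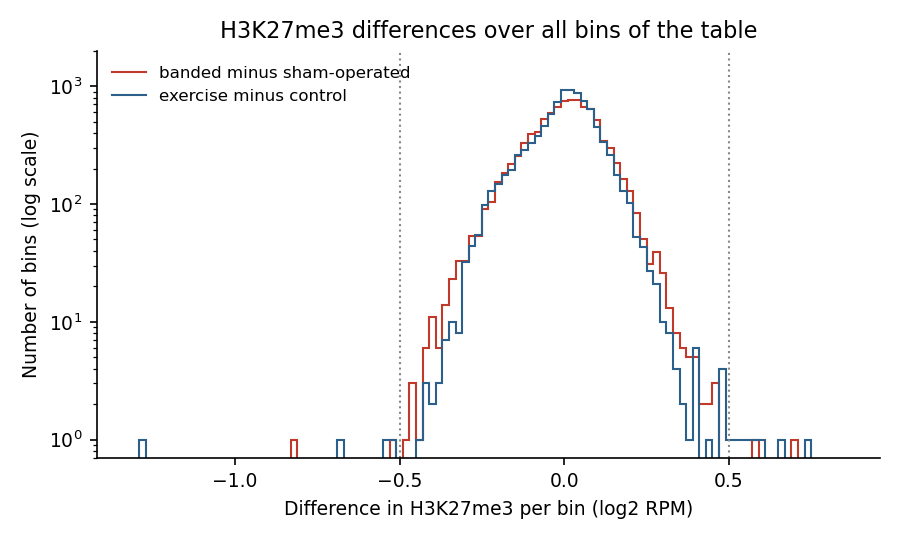
Number of bins (log scale) by difference in H3K27me3 (log2 RPM) for banded minus sham-operated and exercise minus control rats, in steps of 0.02, with dotted lines at -0.5 and 0.5. Both curves are narrow around 0, banding has 2 bins beyond each dotted line, and training has 8 above and 4 below, down to -1.28.

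Density ordered the differences in a curve with both ends low. Bins were ranked by the mean density of the 2 groups and cut into 10 classes of 970 or 971 bins. The median difference was -0.075 in the sparsest class, -0.056 in class 2 and -0.0043 in class 3. It was 0.028, 0.047, 0.042, 0.042 and 0.025 in classes 4 to 8, 0.0014 in class 9 and -0.042 in the densest class. Domains of middle density thus stood higher in banded hearts relative to both the thinnest and the densest H3K27me3 chromatin. The quartiles spanned 0 in classes 1 to 9, and in the densest class they were -0.083 and 0. Training had a similar rise from the sparse end, with medians of -0.060 and -0.066 in classes 1 and 2. Its medians were 0.021, 0.031, 0.037 and 0.042 in classes 5 to 8, 0.034 in class 9 and 0.014 in the densest class.

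The spread was also uneven. The SD of the difference was 0.15 in the sparsest class and 0.071 in the densest one. Of the sparsest bins, 170 (17.5%) were lower by over 0.2 and 45 (4.63%) higher. Among the densest bins these were 13 (1.34%) and 3 (0.309%), against 5.26% and 3.44% over all bins. The spread also followed the level: over classes of mean log2 RPM, the SD was 0.15 in the lowest class, with medians of 14.3 RPM and 50.0 kb per bin, and 0.074 in the highest, with 325 RPM and 720 kb, so level and length vary together there.

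The low value of the sparsest class depended on which column ranked the bins. Ranked by density in control rats, which enter neither column, the median was -0.073, and ranked by sham density alone it was -0.017. In training the sparsest class was also low, at -0.060, but the densest class stood at 0.014, where banding had -0.042. The 2 experiments share no samples. Within the classes, r between the banding and the training difference was 0.48, 0.62 and 0.66 in classes 1 to 3 and 0.073 in the densest class (970 or 971 bins each, which share length and position).

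**Figure D2:**
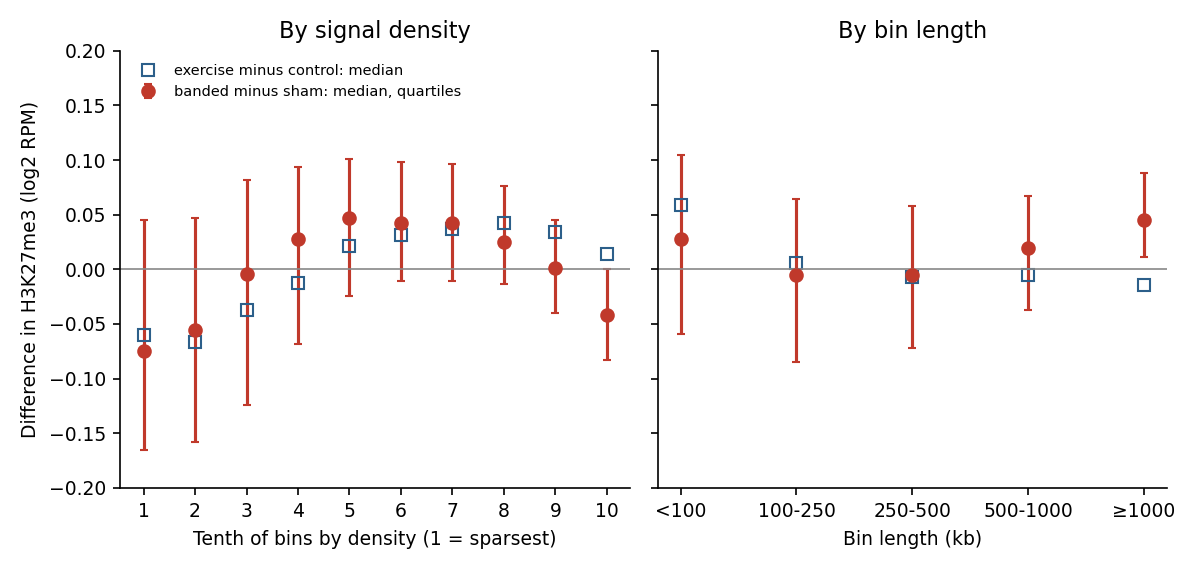
Difference in H3K27me3 (log2 RPM) by class of density, left, and by bin length in kb, right; filled points and bars are the median and quartiles over bins for banded minus sham, open squares the median for exercise minus control. Banding is lowest in the sparsest class (-0.075) and highest in class 5 (0.047), and bins of 1000 kb or more are the one length class with both quartiles above 0.

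Bin length sorted the differences in another way. The median difference was 0.028 in the 2592 bins under 100 kb, -0.0049 in the 3890 bins of 100 to under 250 kb and -0.0051 in the 2029 bins of 250 to under 500 kb. It was 0.020 in the 893 bins of 500 to under 1000 kb and 0.045 in the 299 bins of 1000 kb or more. These longest bins were thinner by median, with a density of -1.82 against values between -1.55 and -1.48 in the other classes. By density, 124 of them fell in the sparsest 3 classes, 144 in the middle 4 and 31 in the densest 3. Of the 299, 237 (79.3%) were higher in banded rats, against 52.9% of all bins, with quartiles of 0.012 and 0.088. In training, 90 of the same 299 bins (30.1%) were higher, against 54.7% of all bins, with a median of -0.015. The longest domains therefore differed in sign between the 2 experiments, a difference that was not tested.

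Within sparse chromatin, short and long bins had medians of opposite sign, with wide overlap. This cross of length with density was chosen after the single classes had been seen. In the sparsest 3 density classes, the median was -0.030 in bins under 100 kb, -0.080 at 100 to under 250 kb and -0.060 at 250 to under 500 kb. The quartiles of each of these classes spanned 0, as with -0.14 and 0.070 under 100 kb. In the same density range the median was 0.046 in 241 bins of 500 to under 1000 kb, with quartiles of -0.094 and 0.11. It was 0.075 in 124 bins of 1000 kb or more, with quartiles of 0.025 and 0.11. In the middle 4 density classes the longest bins, 144 of them, also stood higher, with a median of 0.046 and quartiles of 0.011 and 0.080. In the densest 3 classes the longest bins, 31 of them, had a median of 0. By median, sparse bins under 500 kb were thus lower in banded rats and longer sparse bins higher. In training the same sparse bins had medians, from short to long, of -0.0081, -0.068, -0.087, -0.047 and -0.035. The low medians of the short sparse bins were thus present in both experiments, and only the long sparse bins differed in sign. Once each bin was set against the median of its own density class, the banding median of all bins of 500 to under 1000 kb went from 0.020 to -0.00026. That of bins under 100 kb went from 0.028 to 0.022, and that of bins of 1000 kb or more from 0.045 to 0.037. Bins of 100 to under 250 kb and of 250 to under 500 kb then had -0.0065 and -0.015.

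Chromosomes differed little. The 20 medians lay between -0.042 and 0.031, 13 of them above 0, and the gap of 0.073 was smaller than the interquartile width within any chromosome, 0.12 to 0.16. On all 20 the quartiles spanned 0. Chromosome 16 (0.031, 337 bins) and chromosome 11 (0.026, 308 bins) had the highest medians. Chromosome 12 (-0.042, 195 bins) and chromosome 10 (-0.034, 494 bins) had the lowest, and the next lowest, chromosome 19, was at -0.010.

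Chromosomes 10 and 12 stood apart from the rest in several values. Bins lower by over 0.2 made up 10.3% of chromosome 12 and 9.72% of chromosome 10, against 2.67% to 7.73% on the other 18. Their medians of density were the highest of all, -1.27 on chromosome 10 and -1.32 on chromosome 12, with -1.68 to -1.44 elsewhere. Set against the median of each bin's density class, they were still lowest, at -0.027 and -0.039. Training gave -0.020 and -0.049 for chromosomes 10 and 12, with chromosome 19 between them at -0.029. H3K9me2 in banded against sham rats gave -0.037 and -0.061 for chromosomes 10 and 12. What part density has in these values was not tested further. Over the 20 chromosomes, the banding median had r = 0.84 with the training median (rho = 0.63), -0.71 with median density (rho = -0.56) and 0.81 with the H3K9me2 median (rho = 0.61).

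By summed RPM the highest chromosomes were 13 (log2 ratio 0.025, from 39607 to 40294 RPM) and 11 (0.023), and the lowest were 12 (-0.050) and 10 (-0.034). On chromosome 13 the ratio was 0.015 without the bins that start in its first 10 Mb. On chromosome 15 the ratio was 0.0017 with all bins and 0.013 without its longest bin, described below.

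**Figure D3:**
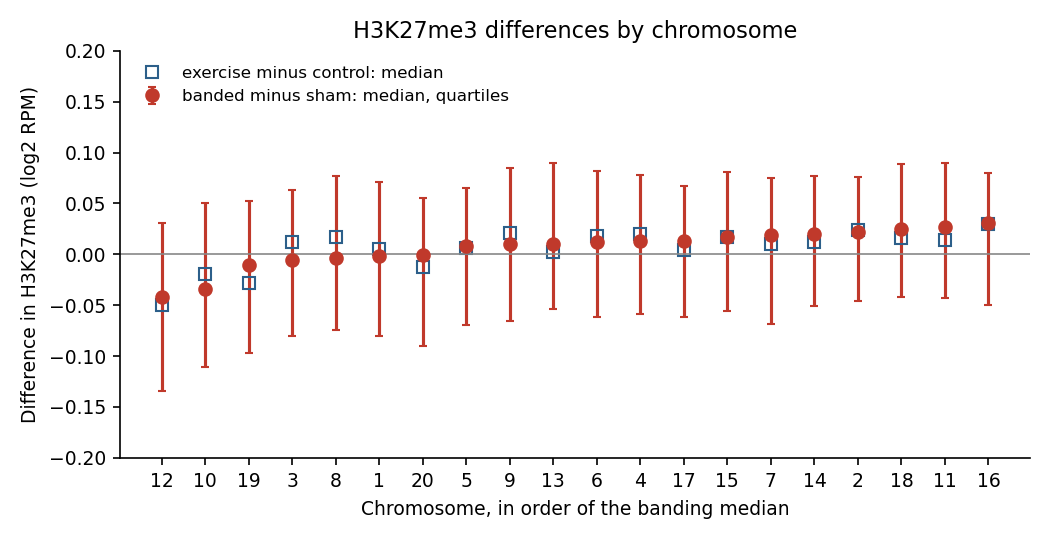
Difference in H3K27me3 (log2 RPM) for each chromosome, in order of the banding median; filled points and bars are the median and quartiles over its bins for banded minus sham, open squares the median for exercise minus control. Chromosomes 12 and 10 are lowest in banding (-0.042 and -0.034), and every bar crosses 0.

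The single bins with the largest differences are given with all 4 group values, in log2 RPM per bin; coordinates are those of the deposited table, and since the genome build behind them is not stated, no gene is placed on them. They were chosen by their difference, so their size is a description. Among the 8 bins with the largest positive difference, the first lay at chr8:36235000-36525002 (290 kb). Its value was 5.64 in sham, 6.34 in banded, 5.22 in control and 5.23 in exercised rats, a difference of 0.70. The banded value stood above all 3 others, and the neighbouring bins differed by 0.16 on both sides. The second bin, at chr1:111725000-111845002 (120 kb), had 5.24 in sham, 5.81 in banded, 4.88 in control and 5.00 in exercised rats, a difference of 0.57.

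The other 6 higher bins differed by 0.42 to 0.46, and the next bin outside the list by 0.42. One of them, at chr1:113485000-113875002 (390 kb), had 5.68 in sham, 6.12 in banded, 5.17 in control and 5.17 in exercised rats. It lies within the same window of chromosome 1 as the second bin, and there too banded rats were highest. At chr17:72015000-72555002 (540 kb) the values were 6.64 in sham, 7.07 in banded, 7.36 in control and 7.21 in exercised rats. At chr5:36025000-36105002 (80.0 kb) they were 4.55, 5.01, 5.29 and 5.36 in the same order. At these 2 bins the sham value was the lowest of the 4, and the banded value lay between sham and both groups of the other experiment.

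Of the 8 bins with the largest negative difference, the first lay at chr7:105735000-105845002 (110 kb). It had 5.80 in sham, 4.98 in banded, 4.20 in control and 4.22 in exercised rats, a difference of -0.82. Here sham stood above all other groups, and banded rats lay between sham and the rats of the exercise experiment. Both neighbouring bins were slightly higher in banded rats, by 0.067 and 0.065, so the neighbours did not share its direction. The second, at chr9:73215000-73395002 (180 kb), had 5.91 in sham, 5.40 in banded, 5.50 in control and 5.15 in exercised rats, -0.52 in banding and -0.35 in training.

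The bin at chr15:27765000-32255002 was the one long domain of the list, 4490 kb. Its value was 10.16 in sham, 9.73 in banded, 9.89 in control and 9.81 in exercised rats. On the RPM scale this was 1146 in sham and 851 in banded rats, and the change of -295 RPM was the largest loss of any bin, the next being -62.0 RPM. Sham was the highest of the 4 groups, and banded rats were the lowest. Most long sparse bins were higher in banded rats, so this domain went against its class. Over it, 3 H3K9me2 bins lay inside, with banded minus sham of 0.073, -0.27 and -0.14, while training gave -0.019, -0.81 and -0.29.

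The other 5 lower bins were 20.0 to 140 kb long and differed by -0.43 to -0.47; the next bin outside the list was at -0.43. Over the lists, 5 of 8 higher and 5 of 8 lower bins belonged to the sparsest 3 of the 10 density classes, and none to the densest 3. Training went the same way in 6 of 8 higher and 6 of 8 lower bins, and over all bins it was higher in 54.7%. Its differences were -0.15 to 0.12 in the higher bins and -0.44 to 0.087 in the lower ones. H3K9me2 over the bin went the same way in 8 of 8 and 7 of 8, and over all bins it was higher in 51.2%. Its differences were 0.024 to 0.46 in the higher bins, so some were small, and -0.51 to 0.16 in the lower ones. The exception was the first lower bin, on chromosome 7, with 0.16 in H3K9me2.

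**Figure D4:**
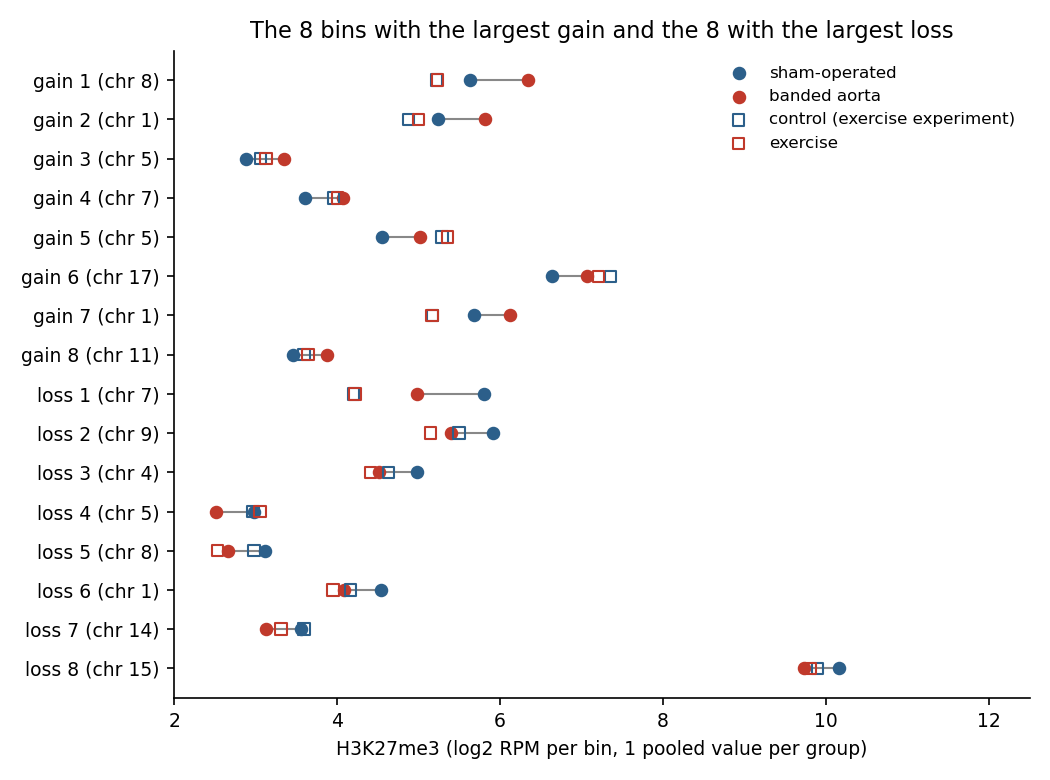
H3K27me3 (log2 RPM per bin) of the 8 bins with the largest gain and the 8 with the largest loss, banded against sham, in the 4 groups; each point is 1 pooled value per group, and a line joins sham and banded. Banded rats have the highest of the 4 values in gains 1 to 4, 7 and 8, and in loss 1 the sham value is the highest, with banded between sham and the other 2 groups.

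Differences extended past single bins only weakly. Over 9600 pairs of adjacent bins with a gap of at most 100 kb, r between their differences was 0.18. For bins farther apart no gap limit was set. There r was 0.23 for bins 2 apart (9663 pairs), 0.12 for bins 5 apart (9603 pairs) and 0.036 for bins 20 apart (9303 pairs). Density had the same order, with r = 0.052 for adjacent bins and 0.27 for bins 2 apart. Within 5 Mb of a chromosome end, 724 bins had a median of -0.0052, against 0.0091 in the other 8979.

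Windows of fixed size do not follow the borders of the bins. RPM was shared out by overlap to 512 windows of 5 Mb, and the log2 ratio of banded over sham had an SD of 0.049, against 0.035 for training. In 15 windows (2.93%) banded rats were higher by over 0.1, and in 6 (1.17%) lower. The highest ratios were 0.20 at chr13:1-5000000 (1062 RPM in sham, 1221 in banded, 976 in control and 933 in exercised rats), 0.18 at chr1:110000001-115000000 and 0.16 at chr13:5000001-10000000. In all 3 the banded sum was the highest of the 4 groups. The lowest were -0.14 at chr15:30000001-35000000, which holds part of the long chromosome 15 bin, -0.12 at chr1:205000001-210000000 and -0.12 at chr10:105000001-110000000. In these 3 windows the training ratio was also below 0, at -0.059, -0.10 and -0.12.

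At this scale thin H3K27me3 regions were higher and dense regions lower in banded rats. The window ratio had r = -0.67 with density (rho = -0.70, 512 windows) and -0.66 with the density of control rats, which are in neither sum. Of all 512 windows, 285 had a ratio above 0 and 227 below. In the 52 sparsest windows the median ratio was 0.064, with 49 above 0, and in the 51 densest it was -0.041, with 44 below 0. In training the medians of the same windows were 0.0010 and -0.0099, and r with density was -0.078. Over single bins r between the banding difference and density was 0.082. The sign at the sparse end thus depended on the unit: most short sparse bins were lower, while most long sparse bins and most sparse windows were higher.

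H3K9me2 and H3K27me3 differed in the same direction in most of the windows with the largest differences. Over the 512 windows the 2 log2 ratios had r = 0.67 (rho = 0.66), and for training against control it was -0.44 (rho = -0.46). The marks were precipitated from nuclei of the same groups, and windows share position and base composition, so the values are a description. Of the 15 windows with H3K27me3 higher by over 0.1, H3K9me2 was higher in 13, and of the 6 lower windows it was lower in 5. Over all windows it was higher in 55.7% and lower in 42.0%. In single bins with H3K27me3 higher by over 0.2, H3K9me2 was higher over 250 of 333 (75.1%), and in bins lower by over 0.2 over 42 of 510 (8.24%), against 51.2% of all bins. Training gave similar shares for H3K27me3 itself: 243 of the 334 higher bins (72.8%) and 41 of the 510 lower bins (8.04%) were higher in exercised rats, against 54.7% of all bins.

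**Figure D5:**
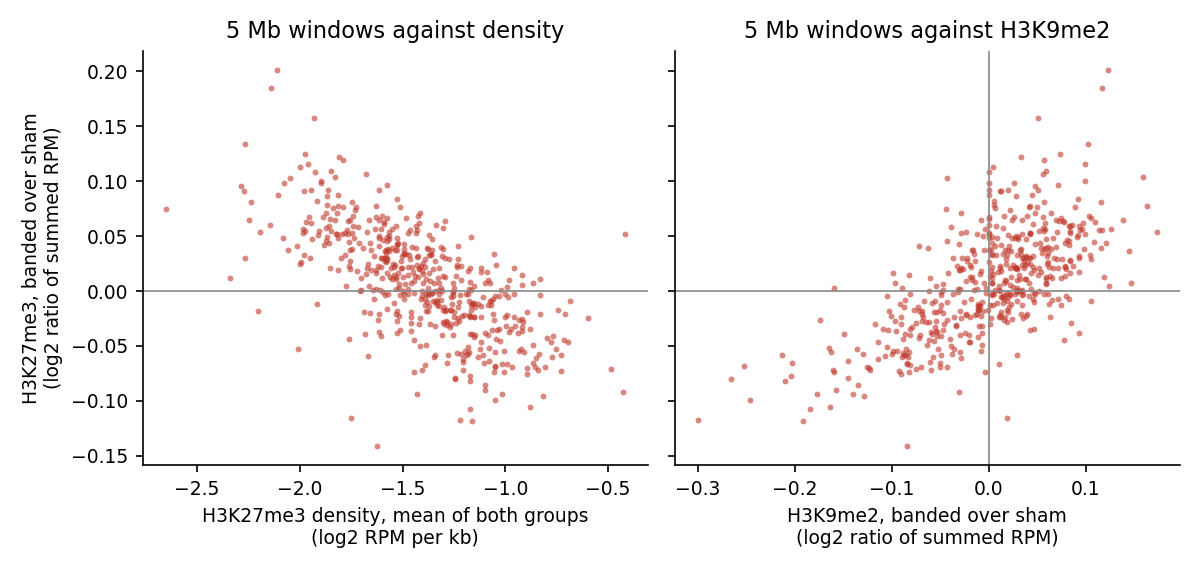
Log2 ratio of summed H3K27me3 RPM, banded over sham, in 512 windows of 5 Mb (1 point each), against H3K27me3 density (log2 RPM per kb), left, and the same ratio for H3K9me2, right. The ratio is lower where density is higher (r = -0.67) and higher where the H3K9me2 ratio is higher (r = 0.67).

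The values in trained rats and in H3K9me2 set a scale for the banding differences. H3K9me2 itself differed more than H3K27me3 between banded and sham rats, with an SD of 0.15 over its 6171 bins and 3.21% of its RPM moved. In H3K9me2, 492 bins were higher by over 0.2 (7.97%) and 685 lower (11.1%). The banding and training differences of H3K27me3 had r = 0.51 over 9703 bins and 0.39 over 512 windows. A bin's banding difference was thus partly matched by that of a separate experiment with other animals and no surgery. The source of that match was not tested.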

How the data were processed

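The authors deposited log2 RPM per bin for each mark and experiment, 1 column per group, per the file headers; the file names give circular binary segmentation and normalized RPM. Bowtie, SAMtools, edgeR and R 2.15.1 are listed in the submitters' processing notes without a role. The genome build, the samples that set the bin borders, the pooling, the way RPM was normalized and any use of the input libraries are not stated in the labels or headers. Both H3K27me3 tables hold the same bins.

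Differences, medians, shares and correlations were computed with numpy 2.4.6, pandas 2.3.3 and scipy 1.17.1 under Python 3.11.15. The steps were checked on simulated data. A window was kept where bins covered at least 50% of it. A bin's RPM was spread evenly along its length, so a window dilutes a change of a bin that reaches past it. Named were the 8 bins and 3 windows with the largest difference each way and the 2 highest and lowest chromosomes by median and by summed RPM. No bin lay on the X chromosome. Over bins, chromosomes and windows 16 correlations were computed, besides those of levels, within density classes and between neighbours.

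The bins and classes were chosen with earlier results of these data known. Chosen after values were seen were the cross of density with length, the counts of long bins, the largest changes in RPM, H3K9me2 over single bins, correlations over chromosomes, the sparsest and densest windows and bins more than 1 apart. Cardiomyocyte markers could not be checked, since no gene was placed on the bins.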

Additional observations from a re-analysis of the deposited data

How the results depend on the processing

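For 33 values, 92 alternatives were computed; 68 stayed within 1.5 times with the same sign, 23 moved further and 1 reversed. That tolerance was set after the data were seen, since no replicates give a spread. Adding 18.4 RPM (the 10th percentile) before the log2 left 1 bin higher and 1 lower by over 0.5, gave 0.495% and 1.37% of bins higher and lower by over 0.2, -0.041 in the sparsest class and an SD of 0.061 at the lowest level. A limit of 0.3 in place of 0.5 counted 56 higher and 114 lower bins, and weighting bins by length put 2.18% higher by over 0.2. Subtracting the median over all bins gave -0.013 for bins of 100 to under 250 kb, -0.013 for 250 to under 500 kb and 0.012 for 500 to under 1000 kb. Set against the median of their density class, an alternative added after seeing the data, chromosomes 16 and 11 had 0.020 and 0.013, bins of 250 to under 500 kb -0.015, and bins of 500 to under 1000 kb reversed to -0.00026. Also added later, chromosome 13 without its first 10 Mb had 0.015 and chromosome 15 without its longest bin 0.013. Ranking by sham density gave -0.017 in the sparsest class. Windows of 1 Mb gave r = -0.43 with density and ratios from -0.43 to 0.40, and windows of 10 Mb a lowest ratio of -0.092. At 2 Mb from chromosome ends the median stood -0.0016 from that elsewhere. Beyond these constructions, the causes were not tested.

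No paired analysis was possible because each group has 1 pooled column per bin and no test was run. Sequencing depth is unknown and there are no replicates, so the precision of a bin's difference was not measured.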
